A study of Arabidopsis thaliana with 12 samples.

Results

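The members of this set were 35 *Arabidopsis thaliana* genes that belong to the core response to low oxygen but lie outside its fermentation enzymes, its group VII ethylene response factors and its oxygen-sensing enzymes. They were taken by their gene identifiers from a table of 33602 counted genes, and all 35 had a row there. RNA was sequenced from whole 7-day-old seedlings of the Col-0 wild type and of the T-DNA insertion line *nup85-1*, each given a mock treatment or 50 µM abscisic acid (ABA) for 3 h, with 3 libraries for each of the 4 groups. No transgene was named in the labels of these libraries, and *nup85-1* is 1 insertion line in which a single nucleoporin gene, *NUP85* (AT4G32910), is disrupted. According to the labels the mock seedlings were also kept in liquid half-strength MS medium for the treatment time, whereas another part of the study's own material marks the mock samples as 0 h, so how long the mock seedlings stood in liquid is not settled here. None of the libraries came from a low-oxygen treatment, and the membership of the genes in a hypoxia response could therefore not be checked in these data. Levels are given as CPM, the reads on a gene scaled to a common library size after TMM normalisation, and in every list of 3 values the order is replicate 1, 2 and 3.

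Oxygen shortage in plants is read through the amino terminus of group VII ethylene response factors, which is oxidised and degraded when oxygen is plentiful and is stable when oxygen falls. The stable factors then switch on a common set of genes in most cell types, several of them through a short promoter sequence called the hypoxia-responsive promoter element (HRPE). ABA, the hormone of water deficit, acts through another route, in which bZIP factors bind promoter sequences that hold the ABA-responsive element (ABRE) with the core ACGTG. The 35 genes fall into 6 role groups here, namely metabolism, ethylene and reactive oxygen signalling, signalling and gene regulation, transport, the wound-responsive and phosphate-induced families, and proteins of unknown function.

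The libraries held between 6616931 and 29798437 reads on genes. Col-0 mock replicate 2 held the fewest, and 3.75% of its reads lay on organelle genes, against 0.0628% to 1.10% in the other libraries. The targeted gene was checked first, and its level went against the label in 1 library: *NUP85* had 31.3, 29.1 and 16.1 CPM in Col-0 mock and 40.0, 41.5 and 29.3 CPM in Col-0 ABA, and 3.54, 1.73 and 27.5 CPM in the libraries labelled *nup85-1* mock and 3.20, 1.98 and 17.0 CPM in those labelled *nup85-1* ABA. Replicate 3 of *nup85-1* mock was thus as high as the wild type, and replicate 3 of *nup85-1* ABA lay between the genotypes. Every difference between genotypes therefore refers to libraries as labelled, and results are given for all 3 replicates and, beside them, for replicates 1 and 2. *RD29A* (AT5G52310), a standard ABA-induced gene, had between 104 and 230.1 CPM in the 6 mock libraries and between 3395 and 6429.6 CPM in the 6 ABA libraries. *RD29B* (AT5G52300), another, had 5.83, 1.67 and 23.0 CPM in Col-0 mock and 1.34, 3.06 and 44.2 CPM in *nup85-1* mock, so that mock replicate 3 was the highest in both genotypes, and it had 122.8 to 329 CPM after ABA. Markers of both organs were detected in every library, with the summed level of 6 green-tissue genes between 33487 and 47176 CPM in mock and between 10837 and 31475 CPM after ABA. The summed level of 8 root genes lay between 106 and 172 CPM in mock and between 59.0 and 74.7 CPM after ABA, and the part of these shifts in the results below was not tested. In whole seedlings, a change in the share of a cell type and a change in RNA per cell cannot be told apart.

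The first question was how the ABA libraries of each genotype differed from its mock libraries, which is called the response to ABA below. If the mock samples were taken at 0 h, ABA and the 3 h in liquid cannot be told apart in these comparisons. Most of the set rose: in Col-0, 23 genes were higher and 1 was lower after ABA, out of 35 tested, and in *nup85-1* 24 were higher and 1 was lower. The higher genes include AT2G17850 and AT5G10040, which passed the low-count filter only through their ABA libraries. With that filter these genes could only be called higher, and both were also called higher without it. A call required both a change of at least 4-fold and an adjusted p under 0.05 from edgeR's quasi-likelihood test, with Benjamini-Hochberg adjustment over all genes tested. By the same rule 7.49% of all genes tested were called in Col-0 (4.06% higher) and 6.75% in *nup85-1* (3.87% higher). The 35 genes were chosen with earlier results of these data known, which limits what this contrast can show. The median log2 fold change of the 35 genes was 2.82 in Col-0 and 3.19 in *nup85-1*, beside -0.01 and 0.01 for all genes. With 1 library left out, the median of the 35 ran from 2.6 to 3.17 in Col-0 and from 2.76 to 3.44 in *nup85-1*. Without the fold limit 31 genes rose and 1 fell in Col-0, and 30 rose and 1 fell in *nup85-1*, where 31.4% and 29.2% of all genes passed. For 33 of the 35 genes, 32 higher and 1 lower, no ABA library of Col-0 overlapped the mock libraries, and the count was the same in *nup85-1*, while 50.3% and 49.1% of all genes did not overlap. With replicates 1 and 2 alone, 23 of the 35 genes were called in Col-0 and 24 in *nup85-1*, where 8.31% and 8.05% of all genes were called. Of the calls made with all 3 replicates, 23 in Col-0 and 24 in *nup85-1* were also made with replicates 1 and 2. The plot of levels by library shows how far the treatments separated for each gene, and the plot of ABA responses shows the fold changes with their errors.

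**Figure D1:**
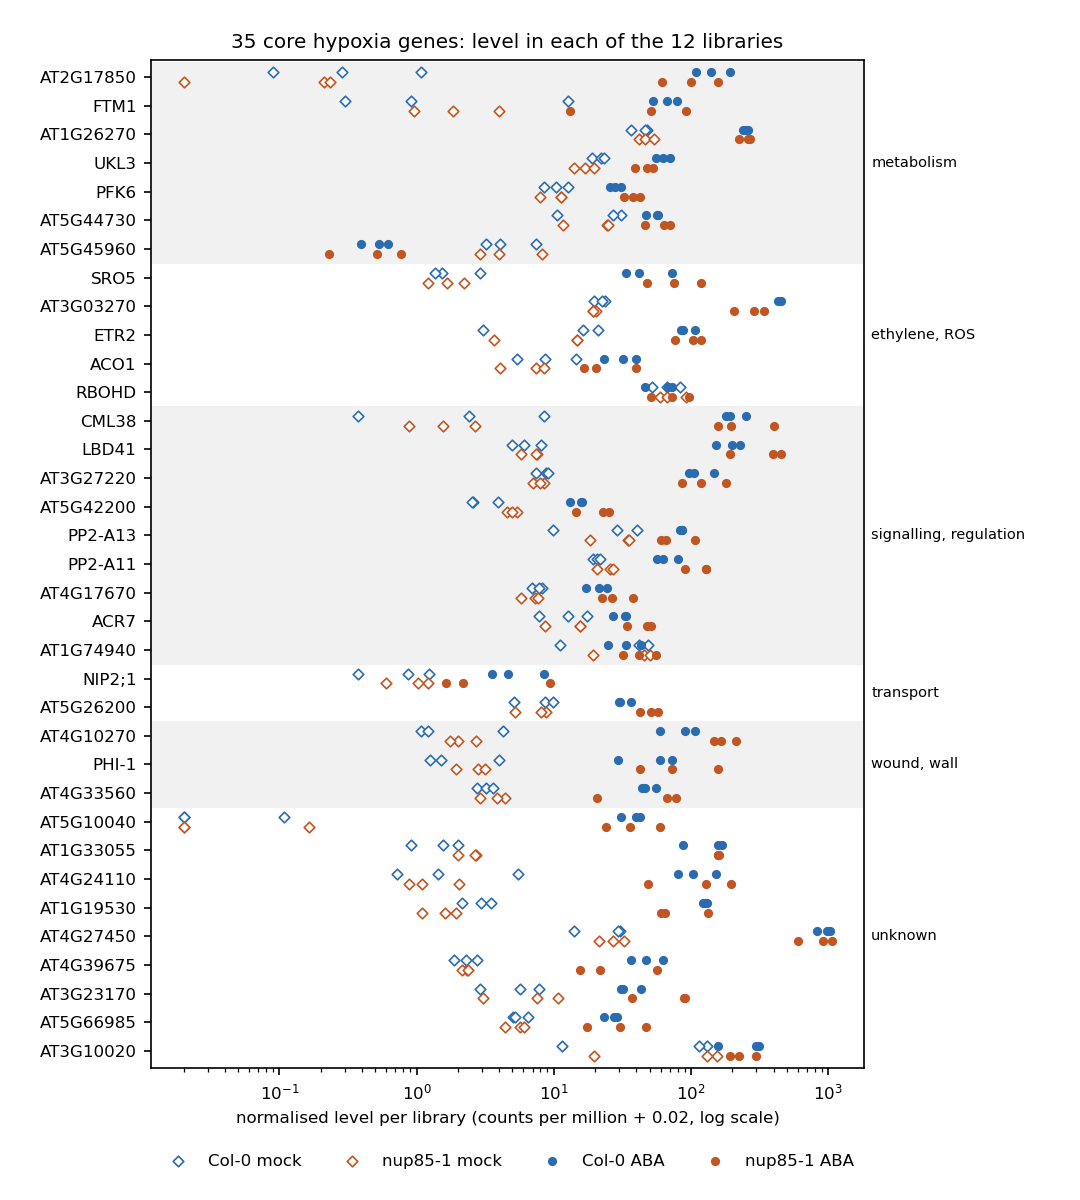
Level of each of the 35 genes (rows, grouped by role) in each of the 12 libraries, as CPM plus 0.02 on a log axis, with open diamonds for mock, filled circles for ABA, blue for Col-0 and orange for *nup85-1*. The ABA libraries lie to the right of the mock libraries for most genes, AT5G45960 is the one gene for which they lie to the left, and those of *RBOHD* and AT1G74940 overlap.

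**Figure D2:**
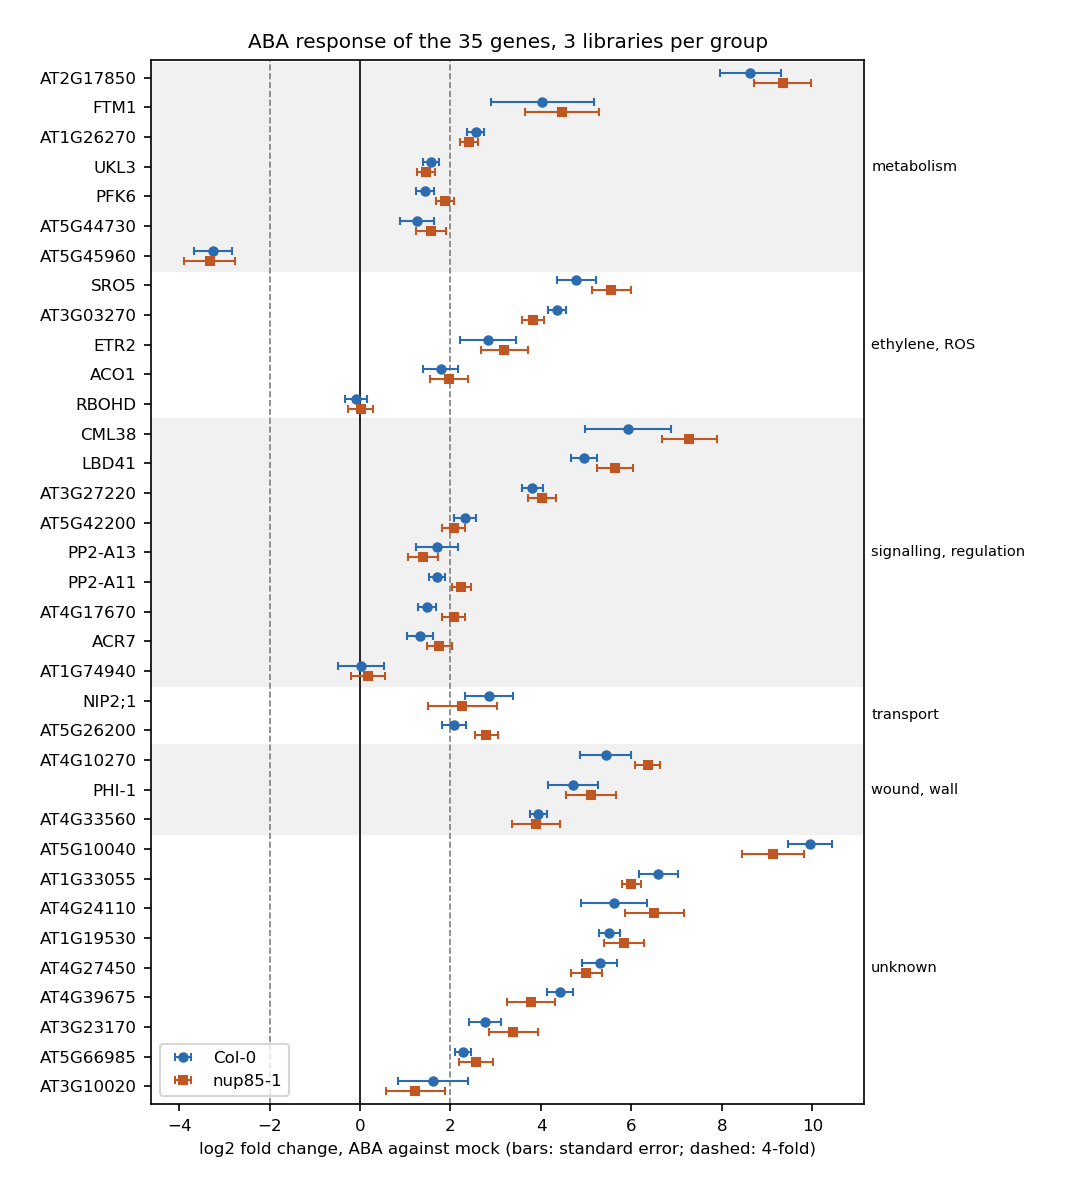
Log2 fold change after ABA against mock for each of the 35 genes (rows, grouped by role), with circles for Col-0 and squares for *nup85-1*, error bars of 1 standard error, 3 libraries per group, and dashed lines at 4-fold. The values run from -3.25 for AT5G45960 to 9.95 for AT5G10040 in Col-0, and those of both genotypes lie close together.

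Of the 35 genes, 23 were called in both genotypes and 26 in at least 1 of them. *NIP2;1* was called only in Col-0, and AT4G17670 and *PP2-A11* only in *nup85-1*, but no difference between the responses was called for any of the 35 genes by the interaction test. The 9 genes called in neither genotype were *UKL3*, *PFK6*, AT5G44730, *ACO1*, *RBOHD*, *ACR7*, AT1G74940, *PP2-A13* and AT3G10020. By role, 4 of 7 metabolic genes were called in Col-0, 3 of 5 genes of ethylene and reactive oxygen signalling, 4 of 9 regulators, 2 of 2 transporters, 3 of 3 genes of the wound-responsive and phosphate-induced families and 8 of 9 genes of unknown function. In *nup85-1* the counts were 4, 3, 6, 1, 3 and 8. The median log2 fold change in Col-0 was 5.30 over the genes of unknown function and 4.71 over the wound-responsive and phosphate-induced families, against 1.57 over metabolism and 1.70 over the regulators.

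The promoters of 4 genes, all called after ABA in both genotypes, are shown as examples. All 35 genes had an entry in the RefSeq annotation of the TAIR10.1 assembly, from which the 250 bases before each annotated gene start were read. The ABRE core ACGTG, searched on both strands with overlapping matches joined, was found in 12 of the 35 (34.3%) and in 23.1% of 26711 protein-coding genes. More than 1 separate match was found in 5 of the 35 (14.3%) and in 5.07% of all. Of those 5 genes, AT4G24110, AT1G26270 and AT5G66985 are printed with *CML38*, which responded strongly and held no ABRE core in this window. *PP2-A13*, which was called after ABA in neither genotype, was also among the 5. Sequences run 5′ to 3′ on the strand of the gene and end at the base before its annotated start, and capitals mark the ABRE core, which reads CACGT where it lies on the other strand. Each is 250 bases long, and they were read at chr4:12520899-12521148 (minus strand) for AT4G24110, chr1:9092561-9092810 (minus strand) for AT1G26270, chr5:26743029-26743278 (plus strand) for AT5G66985 and chr1:28768139-28768388 (minus strand) for *CML38*.
AT4G24110: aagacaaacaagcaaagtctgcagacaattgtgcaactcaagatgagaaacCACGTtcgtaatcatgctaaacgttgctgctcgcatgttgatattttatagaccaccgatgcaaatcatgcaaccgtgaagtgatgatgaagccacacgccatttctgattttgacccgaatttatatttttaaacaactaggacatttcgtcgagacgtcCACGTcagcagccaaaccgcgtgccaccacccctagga
AT1G26270: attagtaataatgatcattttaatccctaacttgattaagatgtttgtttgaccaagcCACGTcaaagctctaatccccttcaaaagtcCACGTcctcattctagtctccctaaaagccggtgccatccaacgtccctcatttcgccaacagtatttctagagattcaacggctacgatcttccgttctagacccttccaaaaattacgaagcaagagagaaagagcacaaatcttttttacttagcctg
AT5G66985: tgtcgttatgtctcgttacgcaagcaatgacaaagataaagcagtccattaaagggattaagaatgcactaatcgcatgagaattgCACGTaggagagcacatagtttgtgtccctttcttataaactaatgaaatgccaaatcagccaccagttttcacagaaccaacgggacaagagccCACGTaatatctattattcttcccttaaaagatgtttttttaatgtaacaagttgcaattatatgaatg
CML38: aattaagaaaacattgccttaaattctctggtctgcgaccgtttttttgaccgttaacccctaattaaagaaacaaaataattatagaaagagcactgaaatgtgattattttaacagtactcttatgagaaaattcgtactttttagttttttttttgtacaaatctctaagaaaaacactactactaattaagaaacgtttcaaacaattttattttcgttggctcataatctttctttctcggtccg

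Of the 12 genes with an ABRE core in the 250 bases, 8 were called after ABA in Col-0 (66.7%), with a median log2 fold change of 2.41, and of the 23 without one 16 were called (69.6%), with a median of 2.85. The HRPE, searched as a single strict pattern on both strands, was found in 0 of the 35 windows of 250 bases and in 0.0374% of all genes (10 of 26711). It was also found in 0 of 15 other hypoxia genes. A search this strict would miss sites further upstream or with a differing sequence, so no conclusion is drawn from the absence of a match.

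Among the metabolic genes the largest rise was that of AT2G17850, a rhodanese-like protein. It had 0.265, 1.06 and 0.0704 CPM in Col-0 mock and 139, 109 and 192 CPM after ABA, while *nup85-1* had 0.191, 0 and 0.215 CPM in mock and 100.1, 61.0 and 157 CPM after ABA. The gene was almost silent in every mock library and among the more abundant of the set in every ABA library. Because only 11 reads in Col-0 and 5 in *nup85-1* came from all mock libraries together, against 10607 and 5800 after ABA, the ratio of the normalised totals was 450.1 in Col-0 (95% counting interval 252 to 902) and 711 in *nup85-1* (305 to 2192). These intervals cover counting error only, and the gene passed the low-count filter through its ABA libraries alone. The fitted log2 fold changes were 8.62 (SE 0.67, adjusted p = 0.00072) and 9.34 (SE 0.63, adjusted p = 0.000519), and they depend on the prior count. Without Col-0 mock replicate 2 the Col-0 value was 9.80, and without Col-0 mock replicate 3 it was 7.98.

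*FTM1* (AT1G43800), a plastid stearoyl-ACP desaturase, had 0.883, 12.6 and 0.282 CPM in Col-0 mock and 79.0, 67.2 and 53.2 CPM after ABA. In *nup85-1* it had 1.82, 0.933 and 3.94 CPM in mock and 92.7, 13.04 and 51.4 CPM after ABA. Col-0 mock replicate 2 was high, so that the highest and lowest of the Col-0 mock libraries differed by 44.7-fold, the largest such ratio among 34 of the genes (AT5G10040, with libraries at 0, gave none), and *nup85-1* ABA replicate 2 was low. This gave a log2 fold change of 4.03 (SE 1.14, adjusted p = 0.0358) in Col-0 and 4.47 (SE 0.82, adjusted p = 0.0084) in *nup85-1*. The call in Col-0 was lost without Col-0 ABA replicate 1, without Col-0 ABA replicate 2 and without Col-0 mock replicate 1, at log2 fold changes of 3.87 (adjusted p = 0.0835), 4.01 (adjusted p = 0.0769) and 3.49 (adjusted p = 0.104). The Col-0 value was 6.88 without Col-0 mock replicate 2 and 3.41 without Col-0 mock replicate 3, and the *nup85-1* value was 3.78 without ABA replicate 1 and 5.19 without mock replicate 3.

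AT1G26270, of the phosphatidylinositol 3- and 4-kinase family, had 36.3, 47.6 and 45.9 CPM in Col-0 mock and 262, 251 and 241 CPM after ABA, while *nup85-1* had 42.1, 46.5 and 53.6 CPM in mock and 270.4, 223 and 263 CPM after ABA. Replicates stood close together, and the log2 fold change was 2.55 (SE 0.18, adjusted p = 0.000646) in Col-0 and 2.41 (SE 0.19, adjusted p = 0.000772) in *nup85-1*. This was the metabolic gene with the highest mean CPM. AT5G45960, a GDSL-motif lipase, was the one gene of the set that fell. It had 4.06, 3.18 and 7.39 CPM in Col-0 mock and 0.601, 0.373 and 0.516 CPM after ABA, while *nup85-1* had 2.87, 4.00 and 8.25 CPM in mock and 0.209, 0.494 and 0.746 CPM after ABA, with no overlap in either genotype and the highest mock level in replicate 3 of both. Its log2 fold change was -3.25 (SE 0.42, adjusted p = 0.00298) in Col-0 and -3.33 (SE 0.57, adjusted p = 0.00694) in *nup85-1*.

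The other 3 metabolic genes passed the adjusted p in both genotypes but rose less than 4-fold. *UKL3* (AT1G55810), a uridine kinase-like enzyme of pyrimidine salvage, had 14.1 to 23.2 CPM over the 6 mock libraries and 39.2 to 70.5 CPM over the 6 ABA libraries, and changed by 1.57 (SE 0.17, adjusted p = 0.00173) on the log2 scale in Col-0 and by 1.46 (SE 0.19, adjusted p = 0.0028) in *nup85-1*. *PFK6* (AT4G32840), a phosphofructokinase of glycolysis, had 7.96 to 12.6 CPM in mock and 25.6 to 42.6 CPM after ABA, with log2 fold changes of 1.43 (SE 0.19, adjusted p = 0.00333) and 1.89 (SE 0.20, adjusted p = 0.00155). AT5G44730, a haloacid dehalogenase-like hydrolase, had 10.6 to 30.8 CPM in mock, where replicate 3 was low in both genotypes, and 46.0 to 70.9 CPM after ABA, with log2 fold changes of 1.26 (SE 0.37, adjusted p = 0.0414) and 1.57 (SE 0.32, adjusted p = 0.0127). *PFK6* shares a stretch of 109 bases at 97.2% identity with AT4G32820, and both *PFK6* and AT5G44730 overlap a neighbouring counted gene, so that reads in the overlap could not be assigned with certainty.

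Among the genes of ethylene and reactive oxygen signalling, *SRO5* (AT5G62520), a protein of the RCD1 family with a role in stress and redox responses, rose most. It had 1.5, 2.88 and 1.34 CPM in Col-0 mock and 42.0, 33.7 and 73.3 CPM after ABA, while *nup85-1* had 2.20, 1.20 and 1.65 CPM in mock and 75.5, 47.7 and 119 CPM after ABA, with replicate 3 highest after ABA in both genotypes. Its log2 fold change was 4.78 (SE 0.43, adjusted p = 0.00112) in Col-0 and 5.55 (SE 0.43, adjusted p = 0.000728) in *nup85-1*, and it overlaps a counted neighbour, AT5G62530. AT3G03270, the universal stress protein HRU1, which is known to modulate reactive oxygen production under low oxygen, was the most abundant of this role group by mean CPM. It had 23.7, 19.7 and 22.3 CPM in Col-0 mock and 454, 449 and 434 CPM after ABA, while *nup85-1* had 19.4, 20.3 and 19.4 CPM in mock and 290.0, 207 and 339.7 CPM after ABA. The Col-0 libraries after ABA agreed closely and all lay above those of *nup85-1*, and the log2 fold change was 4.36 (SE 0.20, adjusted p = 0.000419) in Col-0 and 3.82 (SE 0.25, adjusted p = 0.000519) in *nup85-1*.

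*ETR2* (AT3G23150), an ethylene receptor that represses ethylene signalling in the absence of the hormone, had 16.4, 21.1 and 3.03 CPM in Col-0 mock and 108, 84.8 and 87.3 CPM after ABA. In *nup85-1* it had 14.7, 14.7 and 3.66 CPM in mock and 118, 76.2 and 104 CPM after ABA. Mock replicate 3 was low in both genotypes, and no ABA library overlapped a mock library. This gave a log2 fold change of 2.82 (SE 0.62, adjusted p = 0.0157) in Col-0 and 3.19 (SE 0.52, adjusted p = 0.00579) in *nup85-1*, and without Col-0 mock replicate 1 the Col-0 value was 3.01 at an adjusted p of 0.0529. *ACO1* (AT2G19590), which makes ethylene from its precursor, had 4.02 to 14.6 CPM in mock and 16.6 to 40.0 CPM after ABA, and passed the adjusted p at 1.78 (SE 0.38, adjusted p = 0.014) in Col-0 and 1.96 (SE 0.42, adjusted p = 0.0144) in *nup85-1*, under the fold limit. It crossed 4-fold in Col-0 without Col-0 mock replicate 2 (2.19), and in *nup85-1* without ABA replicate 1 (2.10), without ABA replicate 2 (2.19), without mock replicate 1 (2.05) and without mock replicate 2 (2.15). *RBOHD* (AT5G47910), the NADPH oxidase that makes apoplastic superoxide, was measured at 46.6 to 96.9 CPM in all 12 libraries, and the treatments overlapped in both genotypes. Its log2 fold change was -0.09 (SE 0.24, adjusted p = 0.793) in Col-0 and 0.01 (SE 0.28, adjusted p = 0.981) in *nup85-1*, and its sign changed with the libraries used.

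The regulators held some of the largest and some of the smallest responses. *CML38* (AT1G76650), a calmodulin-like calcium sensor that joins stress granules under low oxygen, had 2.38, 8.49 and 0.352 CPM in Col-0 mock and 194, 179.9 and 253 CPM after ABA. In *nup85-1* it had 1.53, 2.67 and 0.861 CPM in mock and 194, 158 and 404 CPM after ABA. Mock replicate 3 was lowest and ABA replicate 3 highest in both genotypes, and the log2 fold change was 5.93 (SE 0.95, adjusted p = 0.00542) in Col-0 and 7.28 (SE 0.60, adjusted p = 0.000844) in *nup85-1*. Leaving out Col-0 mock replicate 2 gave 7.30 in Col-0, and leaving out Col-0 mock replicate 3 gave 5.34. *LBD41* (AT3G02550), a LOB-domain transcription factor, had 6.09, 8.04 and 4.93 CPM in Col-0 mock and 228, 200.3 and 151 CPM after ABA, while *nup85-1* had 7.56, 5.73 and 7.46 CPM in mock and 453, 193 and 394 CPM after ABA. The ABA libraries lay far above every mock library, and *nup85-1* ABA replicate 2 was close to the Col-0 libraries while the other two of its group were higher. The log2 fold change of *LBD41* was 4.96 (SE 0.28, adjusted p = 0.000479) in Col-0 and 5.64 (SE 0.40, adjusted p = 0.000568) in *nup85-1*.

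AT3G27220, a kelch-repeat protein, had 7.41, 8.80 and 9.01 CPM in Col-0 mock and 105, 97.5 and 148 CPM after ABA, while *nup85-1* had 7.08, 8.53 and 7.89 CPM in mock and 119, 86.5 and 179 CPM after ABA. Mock libraries of both genotypes lay within a narrow range, ABA replicate 3 was highest in both, and the log2 fold change was 3.81 (SE 0.23, adjusted p = 0.000515) in Col-0 and 4.03 (SE 0.31, adjusted p = 0.000703) in *nup85-1*. AT5G42200, a RING-finger protein, had 3.88, 2.58 and 2.54 CPM in Col-0 mock and 13.05, 15.7 and 16.1 CPM after ABA, while *nup85-1* had 5.36, 4.53 and 4.95 CPM in mock and 22.7, 14.4 and 25.4 CPM after ABA. The treatments did not overlap in either genotype, and the log2 fold change was 2.32 (SE 0.24, adjusted p = 0.00165) in Col-0 and 2.07 (SE 0.25, adjusted p = 0.00232) in *nup85-1*, just above the fold limit. In *nup85-1* the value fell under 4-fold with replicates 1 and 2 (1.88), without *nup85-1* ABA replicate 3 (1.90) and without *nup85-1* mock replicate 2 (1.99).

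*PP2-A11* (AT1G63090), an F-box protein with a phloem lectin domain, had 19.2, 20.6 and 21.8 CPM in Col-0 mock and 62.4, 56.8 and 79.9 CPM after ABA, while *nup85-1* had 20.6, 25.6 and 27.2 CPM in mock and 129, 90.1 and 128 CPM after ABA. It changed by 1.70 (SE 0.18, adjusted p = 0.00164) on the log2 scale in Col-0, under the fold limit, and 2.24 (SE 0.21, adjusted p = 0.00119) in *nup85-1*, over it. AT4G17670, of the FLZ zinc-finger (DUF581) family, had 6.97, 8.19 and 7.75 CPM in Col-0 mock and 24.5, 21.3 and 17.2 CPM after ABA, while *nup85-1* had 5.74, 7.33 and 7.601 CPM in mock and 37.9, 26.8 and 22.3 CPM after ABA. ABA replicate 1 was highest in both genotypes, and the log2 fold change was 1.48 (SE 0.19, adjusted p = 0.00308) in Col-0 and 2.07 (SE 0.24, adjusted p = 0.0021) in *nup85-1*. The *nup85-1* value fell under 4-fold without *nup85-1* ABA replicate 1 (1.83) and without *nup85-1* mock replicate 1 (1.95). *PP2-A13* (AT3G61060), a relative of *PP2-A11*, and *ACR7* (AT4G22780), an ACT-domain protein of the family of amino acid sensors, passed the adjusted p under the fold limit. *PP2-A13* had 9.79 to 40.3 CPM in mock and 60.7 to 108 CPM after ABA, and changed by 1.70 (SE 0.46, adjusted p = 0.0308) on the log2 scale in Col-0 and 1.40 (SE 0.33, adjusted p = 0.0205) in *nup85-1*. *ACR7* had 7.82 to 17.6 CPM in mock and 26.9 to 50.8 CPM after ABA, and changed by 1.33 (SE 0.29, adjusted p = 0.0153) and 1.75 (SE 0.28, adjusted p = 0.00513). *PP2-A13*, which overlaps AT3G61070 on the other strand, crossed 4-fold in Col-0 without Col-0 mock replicate 1 (2.16). AT1G74940, the other FLZ gene, had 11.1 to 50.5 CPM in mock and 24.7 to 56.0 CPM after ABA, so that the treatments overlapped, with a log2 fold change of 0.02 (SE 0.51, adjusted p = 0.981) in Col-0 and 0.18 (SE 0.38, adjusted p = 0.760) in *nup85-1* and a sign that changed with the libraries used, and 72 of its bases match AT1G19200 at 93.1%.

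Both genes of the transport group were low to moderate in level. *NIP2;1* (AT2G34390), an aquaporin-type channel known to carry lactic acid, had 0.353, 1.21 and 0.845 CPM in Col-0 mock and 4.63, 3.51 and 8.44 CPM after ABA, while *nup85-1* had 0.574, 1.20 and 1.00 CPM in mock and 2.16, 1.61 and 9.32 CPM after ABA. ABA replicate 3 was highest in both genotypes, and in *nup85-1* it stood well above the others. The log2 fold change was 2.85 (SE 0.52, adjusted p = 0.00858) in Col-0 and 2.26 (SE 0.76, adjusted p = 0.0649) in *nup85-1*, where it passed without ABA replicate 2, at 2.65 (adjusted p = 0.0434), with DESeq2, at 2.25 (adjusted p = 0.0122), and in 1 fit over all 4 groups, at 2.26 (adjusted p = 0.0316). The *nup85-1* value was 1.13 with replicates 1 and 2 and 1.03 without ABA replicate 3. A stretch of 740 bases of *NIP2;1* is 95.9% identical to AT2G29870, and the gene overlaps AT2G34380 on the other strand, so its count is uncertain. AT5G26200, a mitochondrial substrate carrier, had 8.56, 9.86 and 5.07 CPM in Col-0 mock and 36.6, 30.5 and 29.6 CPM after ABA, while *nup85-1* had 8.71, 7.995 and 5.16 CPM in mock and 51.1, 42.3 and 57.8 CPM after ABA, with no overlap between treatments and mock replicate 3 lowest in both. Its log2 fold change was 2.07 (SE 0.26, adjusted p = 0.00275) in Col-0 and 2.80 (SE 0.24, adjusted p = 0.000912) in *nup85-1*, and the Col-0 value fell under 4-fold with replicates 1 and 2 (1.90), without Col-0 ABA replicate 1 (1.98) and without Col-0 mock replicate 3 (1.83). Its gene overlaps the counted gene AT5G26210.

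The wound-responsive and phosphate-induced families were called without exception in both genotypes. AT4G10270, of a wound-responsive family, had 1.06, 4.25 and 1.20 CPM in Col-0 mock and 106, 89.8 and 59.1 CPM after ABA, while *nup85-1* had 2.68, 2.00 and 1.72 CPM in mock and 212, 167 and 147 CPM after ABA. Col-0 mock replicate 2 was high among the mock libraries, every ABA library of *nup85-1* lay above every ABA library of Col-0, and the gene overlaps the counted gene AT4G10280. Its log2 fold change was 5.43 (SE 0.57, adjusted p = 0.00165) in Col-0 and 6.36 (SE 0.28, adjusted p = 0.000351) in *nup85-1*, and without Col-0 mock replicate 2 the Col-0 value was 6.23. AT4G33560, another wound-responsive gene, had 2.74, 3.18 and 3.59 CPM in Col-0 mock and 46.1, 44.0 and 55.5 CPM after ABA, while *nup85-1* had 4.40, 3.86 and 2.87 CPM in mock and 77.7, 20.6 and 66.4 CPM after ABA. Replicate 2 of *nup85-1* ABA was low among the ABA libraries, yet above every mock library, and the log2 fold change was 3.94 (SE 0.19, adjusted p = 0.000419) in Col-0 and 3.89 (SE 0.53, adjusted p = 0.00319) in *nup85-1*. *PHI-1* (AT1G35140), of the phosphate-induced family linked to growth under carbon limitation, had 1.24, 3.94 and 1.48 CPM in Col-0 mock and 59.5, 72.2 and 29.5 CPM after ABA, while *nup85-1* had 1.91, 2.80 and 3.16 CPM in mock and 158, 73.3 and 42.3 CPM after ABA. Here ABA replicate 3 was the lowest in both genotypes, and the log2 fold change was 4.71 (SE 0.55, adjusted p = 0.00213) in Col-0 and 5.11 (SE 0.56, adjusted p = 0.00168) in *nup85-1*, with 5.30 in Col-0 without mock replicate 2 and 4.45 in *nup85-1* without ABA replicate 1.

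The genes of unknown function included those with the highest and the lowest level per kilobase of exon in mock libraries, AT3G10020 and AT5G10040. AT4G27450, an aluminium-induced protein family member, had 30.2, 29.6 and 14.1 CPM in Col-0 mock and 1041, 989 and 833 CPM after ABA, while *nup85-1* had 32.2, 26.9 and 21.2 CPM in mock and 924, 599.5 and 1061 CPM after ABA. It was the most abundant of the 35 after ABA in both genotypes, *nup85-1* ABA replicate 2 was low for its group, and the gene overlaps the counted gene AT4G27440. The log2 fold change was 5.30 (SE 0.39, adjusted p = 0.000676) in Col-0 and 5.005 (SE 0.35, adjusted p = 0.000549) in *nup85-1*. AT5G10040 was close to undetected in mock, with 0.0883, 0 and 0 CPM in the Col-0 libraries and 0, 0 and 0.143 CPM in those of *nup85-1*. After ABA it had 39.7, 31.0 and 42.6 CPM in Col-0 against 35.8, 24.1 and 59.0 CPM in *nup85-1*. From 1 read in all Col-0 mock libraries against 2694 after ABA, the ratio of normalised totals was 1258 (95% counting interval 226 to 49690), and from 2 against 2172 reads in *nup85-1* it was 666 (184 to 5502). A count of 1 or 2 leaves the size of the change uncertain over this whole interval, while its direction was the same in every library. The gene passed the low-count filter through its ABA libraries alone, so with that filter only a rise could be called. The fitted values, 9.95 (SE 0.48, adjusted p = 0.000419) and 9.13 (SE 0.69, adjusted p = 0.000676), depend on the prior count and were 12.41 in Col-0 without mock replicate 1, 9.25 without mock replicate 3 and 12.12 in *nup85-1* without mock replicate 3. The gene lies within AT5G10030 on the other strand, with no strand setting of the counting given.

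AT1G33055 had 0.883, 1.97 and 1.55 CPM in Col-0 mock and 169, 157 and 86.8 CPM after ABA, while *nup85-1* had 2.68, 2.00 and 2.65 CPM in mock and 158, 159.7 and 158 CPM after ABA, and it overlaps AT1G33050 on the same strand. The *nup85-1* ABA libraries were nearly equal, Col-0 ABA replicate 3 was low, and the log2 fold change was 6.60 (SE 0.43, adjusted p = 0.000602) in Col-0 and 5.998 (SE 0.20, adjusted p = 0.000146) in *nup85-1*. AT4G24110 had 1.41, 5.46 and 0.704 CPM in Col-0 mock and 104, 79.9 and 152 CPM after ABA, while *nup85-1* had 0.861, 1.07 and 2.01 CPM in mock and 128, 48.3 and 197 CPM after ABA. Replicate 3 was highest and replicate 2 lowest after ABA in both genotypes, and the log2 fold change was 5.62 (SE 0.73, adjusted p = 0.00298) in Col-0 and 6.51 (SE 0.66, adjusted p = 0.00137) in *nup85-1*, with 6.75 in Col-0 without mock replicate 2. AT1G19530 had 2.91, 3.49 and 2.11 CPM in Col-0 mock and 126, 122 and 131 CPM after ABA, while *nup85-1* had 1.91, 1.60 and 1.08 CPM in mock and 64.9, 60.9 and 133 CPM after ABA. Its Col-0 ABA libraries agreed closely, and among those of *nup85-1* replicates 1 and 2 were low while replicate 3 was at the Col-0 level. The log2 fold change after ABA was 5.51 (SE 0.23, adjusted p = 0.000419) in Col-0 and 5.83 (SE 0.44, adjusted p = 0.000668) in *nup85-1*.

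AT4G39675 had 1.85, 2.27 and 2.75 CPM in Col-0 mock and 62.9, 36.3 and 47.1 CPM after ABA, while *nup85-1* had 2.30, 2.13 and 2.37 CPM in mock and 21.6, 15.6 and 56.7 CPM after ABA. The same pattern was seen as for AT1G19530, with *nup85-1* ABA replicate 3 at the Col-0 level and the other 2 replicates lower, and the log2 fold change was 4.41 (SE 0.29, adjusted p = 0.000602) in Col-0 and 3.78 (SE 0.54, adjusted p = 0.00367) in *nup85-1*, where it was 3.02 without ABA replicate 3. AT3G23170 had 5.65, 7.73 and 2.89 CPM in Col-0 mock and 30.9, 32.1 and 43.4 CPM after ABA, while *nup85-1* had 7.46, 10.7 and 3.01 CPM in mock and 90.7, 37.1 and 89.5 CPM after ABA. Replicate 2 of *nup85-1* ABA was low for its group, and the log2 fold change was 2.76 (SE 0.36, adjusted p = 0.00292) in Col-0 and 3.39 (SE 0.54, adjusted p = 0.00547) in *nup85-1*. AT5G66985 had 5.03, 6.52 and 5.21 CPM in Col-0 mock and 27.4, 23.3 and 29.0 CPM after ABA, while *nup85-1* had 5.65, 5.996 and 4.37 CPM in mock and 30.4, 17.4 and 46.7 CPM after ABA. It changed by 2.27 (SE 0.18, adjusted p = 0.000793) on the log2 scale in Col-0 and 2.57 (SE 0.38, adjusted p = 0.00405) in *nup85-1*, with no overlap between treatments.

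AT3G10020 was the exception among the genes of unknown function. It had 130.0, 114 and 11.5 CPM in Col-0 mock and 313, 299.7 and 157 CPM after ABA, while *nup85-1* had 155, 131 and 19.8 CPM in mock and 298.8, 193 and 225 CPM after ABA. Mock replicate 3 was far below mock replicates 1 and 2 in both genotypes, although no ABA library overlapped the mock libraries. The log2 fold change was 1.61 (SE 0.78, adjusted p = 0.157) in Col-0 and 1.23 (SE 0.66, adjusted p = 0.201) in *nup85-1* with all 3 replicates, and 1.35 (SE 0.15, adjusted p = 0.00102) and 0.77 (SE 0.21, adjusted p = 0.0159) with replicates 1 and 2, under 4-fold in both sets. Mock replicate 3 was also the lowest of its group, in both genotypes, for *ETR2*, *PP2-A13*, AT5G44730 and AT1G74940. Over the whole set, mock replicate 3 was the lowest of its group for 19 of the 35 genes in Col-0 and for 17 in *nup85-1*, and Col-0 mock replicate 2 was the highest for 20. After ABA, *nup85-1* replicate 2 was the lowest of its group for 29 of the 35 genes. The summed level of the 35 genes was 323 to 603 CPM over the mock libraries and 2973 to 5036 CPM over the ABA libraries, with its lowest mock value in Col-0 replicate 3 and its lowest ABA value in *nup85-1* replicate 2.

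Per kilobase of exon, which allows levels to be set beside each other, the order of the genes after ABA in Col-0 was led by AT4G27450 (698 CPM per kb), AT3G03270 (234), AT3G10020 (229.6) and *CML38* (210.4). In *nup85-1* the highest levels per kb were those of AT4G27450 (630.2), AT4G10270 (367), *CML38* (254) and *LBD41* (229). AT3G10020 had the highest level per kb in mock libraries, 76.1 in Col-0 and 91.4 in *nup85-1*. The order in mock and after ABA thus differed, since AT2G17850 and AT5G10040, at 0.649 and 0.0676 CPM per kb in Col-0 mock, reached 205 and 86.8 after ABA. *NIP2;1* (3.94 CPM per kb) and AT5G45960 (0.341) were the lowest after ABA in Col-0.

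The second question was whether the levels of these genes differed by genotype label. Under mock conditions none of the 33 genes tested was called with all 3 replicates, at an adjusted p under 0.05 and a change of at least 1.5-fold, where 0% of all genes were called. With replicates 1 and 2 none was called either, where 0.0155% of all genes were, and 2 of the 33 (6.06%) had an unadjusted p under 0.05 in each set, against 5.15% of all genes with all 3 replicates and 14.2% with replicates 1 and 2. DESeq2 called 0 of the 35 in both sets, where it called 0.139% and 0.742% of all genes, and with the replicate number as a block 0 of the 33 were called, against 0.311% of all genes. AT2G17850 and AT5G10040 had too few mock reads to be tested. The fitted log2 differences of the 33 genes ran from -1.11 to 0.77 with all 3 replicates, with standard errors of 0.13 to 1.24, so that differences of this size were not detectable in the noisier genes.

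After ABA 0 of the 35 genes were called between genotypes with all 3 replicates by edgeR, where 0% of all genes were called, and DESeq2 also called 0, beside 0.338% of all genes. An unadjusted p under 0.05 was reached by 9 of the 35 (25.7%), against 4.91% of all genes. In 5 genes every *nup85-1* library lay above every Col-0 library after ABA, namely *PP2-A11*, AT4G10270, *ACR7*, *PFK6* and AT5G26200, and in 2, *UKL3* and AT3G03270, every one lay below, while 11.3% of all genes did not overlap. The same-numbered libraries of both genotypes deviated together, and with the replicate number as a block 3 of the 35 genes were called, where 1.37% of all genes were, and all were higher in *nup85-1*: AT4G10270, at a log2 difference of 1.06 (adjusted p = 0.017), *PP2-A11*, at 0.80 (adjusted p = 0.0356), and *SRO5*. With replicates 1 and 2 alone, 2 of the 34 genes tested were called, where 2.96% of all genes were. AT4G10270 was higher in the libraries labelled *nup85-1*, at 0.95 (SE 0.16, adjusted p = 0.0355), and AT1G19530 was lower, at -0.98 (SE 0.10, adjusted p = 0.0117). With all 3 replicates these differences were 1.04 (SE 0.27, adjusted p = 0.843) and -0.56 (SE 0.30, adjusted p = 1). With the block on replicates 1 and 2, few libraries are left to estimate the spread of each gene, so its p-values rest mostly on spread shared across genes. That fit called 9 of the 34 genes, where it called 6.04% of all genes. Of these AT4G10270, *PP2-A11* and *SRO5* were higher in *nup85-1*, and AT1G19530, *UKL3*, AT2G17850, *NIP2;1*, AT3G03270 and AT4G39675 were lower. DESeq2 on replicates 1 and 2, an alternative chosen after the data had been seen, called 6 of the 35, and 3.24% of all genes.

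**Figure D3:**
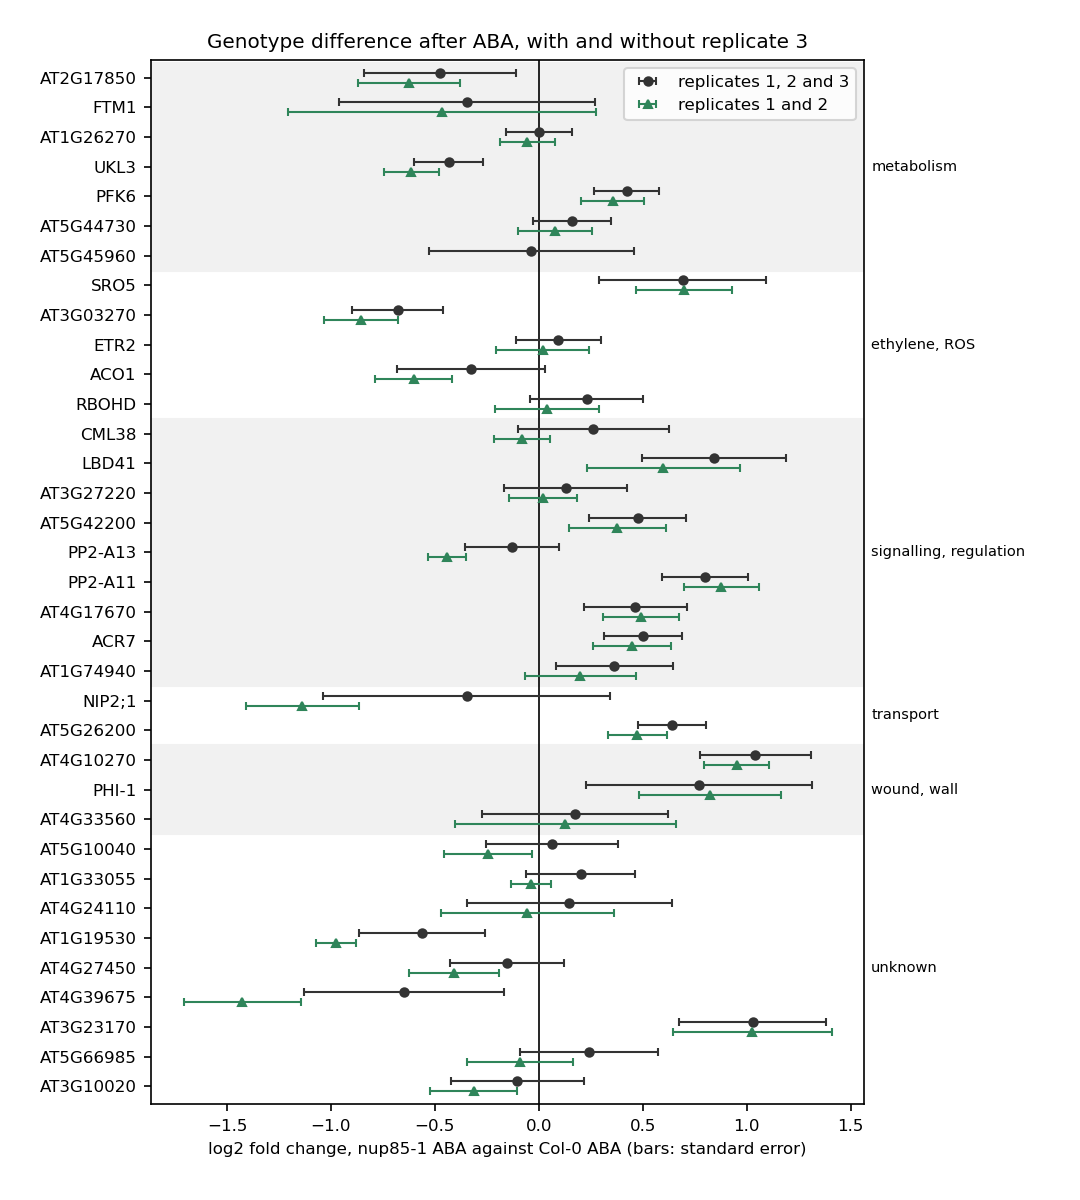
Log2 difference between *nup85-1* and Col-0 after ABA for each of the 35 genes (rows, grouped by role), with circles for all 3 replicates, triangles for replicates 1 and 2, and error bars of 1 standard error. AT4G10270 and AT3G23170 lie near 1 in both sets, AT3G03270 lies below 0 in both, and AT1G19530, AT4G39675 and *NIP2;1* lie further below 0 with replicates 1 and 2 than with all 3 (AT5G45960 was not tested in replicates 1 and 2).

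The values by library show where the sets of replicates part. After ABA the mean of AT4G10270 was 85.0 ± 24.0 CPM in Col-0 against 175 ± 33.4 CPM in *nup85-1* (SD, n = 3 each), and in mock, at 2.17 ± 1.80 and 2.13 ± 0.493 CPM, the genotypes overlapped. *PP2-A11* had 66.4 ± 12.1 and 116 ± 22.2 CPM after ABA, and its log2 difference was 0.80 (SE 0.21, adjusted p = 0.846) with all 3 replicates and 0.88 (SE 0.18, adjusted p = 0.0611) with replicates 1 and 2. AT3G03270 averaged 446 ± 10.1 CPM in Col-0 against 279 ± 67.0 CPM in *nup85-1* after ABA, with a log2 difference of -0.68 (SE 0.22, adjusted p = 0.978) and, with replicates 1 and 2, -0.86 (SE 0.18, adjusted p = 0.0617). For both genes the direction was the same in each set, and neither passed edgeR's adjusted p without the block, while on replicates 1 and 2 both were called with the block and by DESeq2. AT1G19530 and AT4G39675 were at the Col-0 level in *nup85-1* ABA replicate 3, the library in which *NUP85* lay between the genotypes. Both were below it in replicates 1 and 2. In mock, AT1G19530 was lower in every *nup85-1* library (1.91, 1.60 and 1.08 CPM) than in any Col-0 library (2.91, 3.49 and 2.11 CPM). That mock difference included replicate 3 and was not called. AT1G33055 and AT5G42200 went the other way in mock, with every *nup85-1* library above every Col-0 library. Neither was called, and the share of all genes that did not overlap in mock was not computed. For AT4G39675 the log2 difference was -0.65 (SE 0.48, adjusted p = 1) with all 3 replicates and -1.43 (SE 0.28, adjusted p = 0.0566) with replicates 1 and 2, where the block gave -1.39 (adjusted p = 0.000429). *NIP2;1* was likewise under the Col-0 range in *nup85-1* replicates 1 and 2 and not in replicate 3, at -0.35 (SE 0.69, adjusted p = 1) and -1.14 (SE 0.27, adjusted p = 0.0825), and was also called with the block on replicates 1 and 2. The part of the differing *NUP85* level of replicate 3 in these values was not tested.

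**Figure D4:**
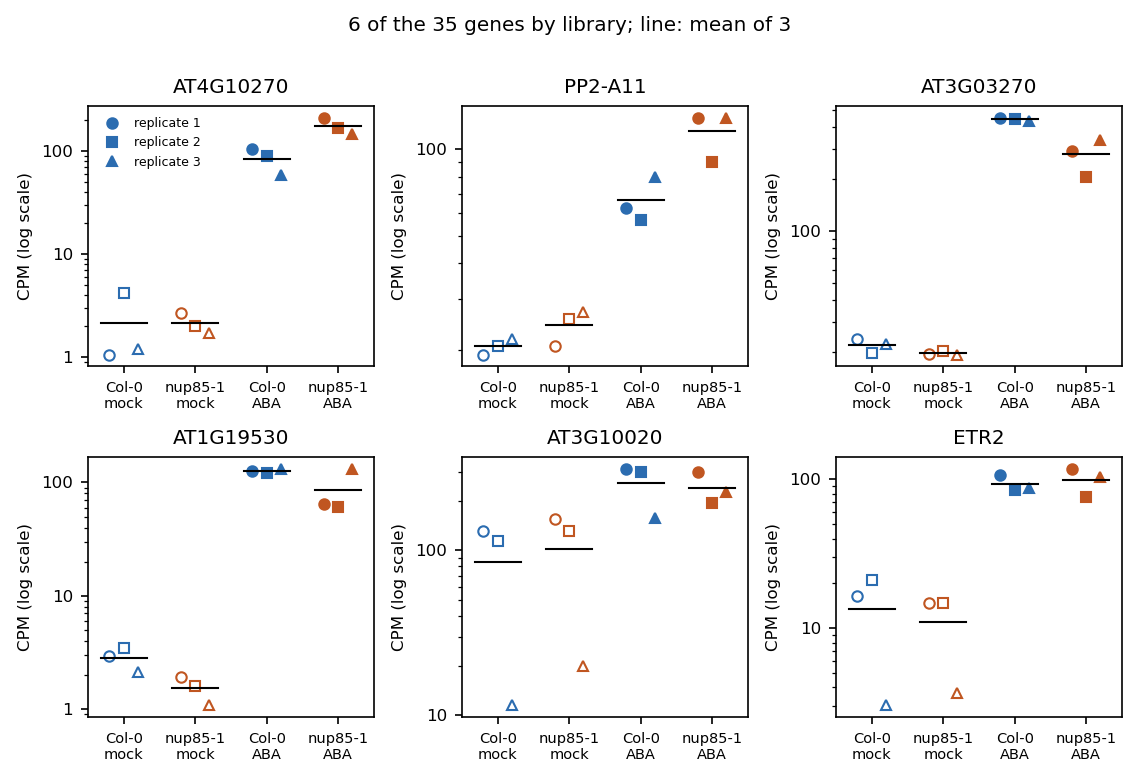
CPM (log axis) of 6 of the 35 genes in each library, with circles, squares and triangles for replicates 1, 2 and 3, open symbols for mock, filled for ABA, blue for Col-0, orange for *nup85-1*, and a line at the mean of 3. AT4G10270 and *PP2-A11* are higher in every *nup85-1* ABA library than in any Col-0 ABA library, and AT3G03270 is lower in every one. AT1G19530 is lower after ABA in *nup85-1* replicates 1 and 2 only, and in mock it is lower in every *nup85-1* library. Mock replicate 3 of AT3G10020 and *ETR2* lies far below the other mock libraries.

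The third question was whether the response to ABA itself differed between the genotypes, which was tested as the interaction of genotype and treatment over all 12 libraries. It was called for 0 of the 35 genes with all 3 replicates, by edgeR (0% of all genes) and by DESeq2 (0.00378% of all genes), and an unadjusted p under 0.05 in edgeR was reached by 0 of the 35 and by 1.5% of all genes. With replicates 1 and 2 it was called for 0 of the 35 by both tools, beside 0.00976% of all genes in edgeR and 0.255% in DESeq2, and 6 (17.1%) reached an unadjusted p under 0.05 in edgeR, against 9.29% of all genes. The fitted differences ran from -0.76 to 1.37 on the log2 scale, with a median standard error of 0.57. Across the 35 genes the response in *nup85-1* followed that in Col-0 with Pearson's r = 0.98 and Spearman's rho = 0.966, and over 19777 genes tested in both the values were 0.943 and 0.925. These correlations are descriptions across genes, which are not independent replicates. The response was larger in size in *nup85-1* for 22 of the 35 (62.9%) and for 42.5% of all genes. The median interaction of the 35 genes was 0.31 on the log2 scale, but its sign changed with single libraries. It was -0.055 without Col-0 mock replicate 2 and -0.084 without *nup85-1* ABA replicate 3. With any other single library left out it lay between 0.21 and 0.50.

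The other genes of the low-oxygen response, taken from a fixed list of 15 fermentation enzymes, group VII factors, sensors and related genes, gave the following counts for comparison. In Col-0 8 of the 15 rose by at least 4-fold after ABA (median log2 fold change 2.69) and in *nup85-1* 9 did (median 3.05). Of all genes, 7.49% and 6.75% were called in either direction. The genes called in both genotypes were *ADH1*, AT4G33070, *SUS1*, *SUS4*, *ERF71*, *HB1*, AT5G15120 and AT5G39890, and *PDC2* was called in *nup85-1* only. With replicates 1 and 2, 8 of the 15 were called in Col-0 (median 2.30) and 7 in *nup85-1* (median 1.80). By that rule 8.31% and 8.05% of all genes were called. In *nup85-1*, AT4G33070 had 8.13, 9.86 and 5.16 CPM in mock and 40.1, 22.5 and 569 CPM after ABA, so replicate 3 stood far above the others. Without the fold limit 12 of the 15 passed the adjusted p in Col-0 and 11 in *nup85-1*, beside 32 and 31 of the 35 genes. Of all genes 31.4% and 29.2% passed.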

How the data were processed

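Per the submitters' notes the authors checked reads with FastQC, aligned them with TopHat2 to the TAIR10 genome and deposited featureCounts read counts per gene (versions and strand setting not given in the sources used here); 0 columns belonged to other samples. The counts were tested as deposited with edgeR 4.0.16 (R 4.3.3, limma 3.58.1; TMM factors, filterByExpr, quasi-likelihood test, Benjamini-Hochberg adjustment over all genes), each comparison fitted on its own libraries, and DESeq2 1.42.0 was an alternative. The code was tested on simulated data. Calls needed an adjusted p under 0.05 and a 4-fold change for ABA or 1.5-fold for genotype, as in the study's criteria, and the interaction had no fold limit. No source used here says that the replicates came from separately grown plants, so p-values measure the spread between these libraries. Same-numbered replicates deviated together in the genotype comparisons (r from 0.539 to 0.79 for each pair) and less in the ABA comparisons (-0.0636 to 0.308), so the replicate block is given beside the former. In the genotype comparisons, replicates 1 and 2 of unlike number also correlated (0.338 to 0.535). Pairs of either with replicate 3 ran from -0.697 to -0.529, so that replicate 3 stood apart.

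Values by library were printed for every gene called in either genotype or in replicates 1 and 2, and for the most abundant gene of each role. The 35 genes, the role groups and the other lists were chosen with earlier results of these data known. Sequences and exon lengths came from the RefSeq annotation of TAIR10.1, and 1 promoter is not reported here. Motif matches within 1 promoter that overlapped were counted once. Alternatives were other normalisation factors, no low-count filter, other fold limits, 1 fit over all 4 groups, the replicate block, DESeq2 and leaving out each library.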

Additional observations from a re-analysis of the deposited data

How the results depend on the processing

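The ABA calls of the 35 genes depended mainly on how the fold limit was applied. Tested against 4-fold within the model, 14 of the 35 genes (222 of all genes) were called in Col-0 and 13 (153) in *nup85-1*, and without a fold limit 6299 and 5838 of all genes were. Leaving out 1 library gave 22 to 25 of the 35 in Col-0 (1266 to 1622 of all genes) and 24 to 27 in *nup85-1* (1129 to 1598). Blocking on the replicate number gave 24 higher and 1 lower of the 35 in each genotype, where same-numbered libraries correlated weakly or not at all. In Col-0 that fit called AT3G10020, at 2.10 (edgeR, adjusted p = 0.0447). Upper-quartile factors moved the median of all genes to -0.15 in Col-0 and -0.09 in *nup85-1*, with 22 genes higher and 1 lower in each. Apart from the fold limit inside the test, 21 of the 35 genes were called in Col-0 and 23 in *nup85-1* under all 17 settings.

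The log2 change of AT1G74940 changed sign in Col-0 with replicates 1 and 2 (-0.22), the block on those replicates (-0.23), DESeq2 on them (-0.20), upper-quartile factors (-0.12) and single libraries left out (-0.40 to 0.39), and in *nup85-1* the values were -0.13, -0.17, -0.12 and -0.15 to 0.40, with no reversal by upper-quartile factors. That of *RBOHD* (AT5G47910) ran from -0.25 to 0.081 in Col-0 with single libraries left out, and in *nup85-1* it was -0.040 with replicates 1 and 2, -0.011 with the block, -0.056 with the block on replicates 1 and 2, -0.025 with DESeq2 on them, -0.094 with upper-quartile factors and -0.24 to 0.22 with single libraries left out. For AT4G10270 under mock the genotype difference was -0.049 with replicates 1 and 2, -0.13 with DESeq2 on them and -0.28 to 0.91 with single libraries left out. The interaction of AT1G19530, 0.33 with all 3 replicates, was -0.16 with replicates 1 and 2, -0.16 with the block on them, -0.18 with DESeq2 on them and -0.13 to 0.54 with single libraries left out. None of these values passed the threshold, and the cause was not tested.

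Between genotypes after ABA 2 of the 34 genes tested were called with replicates 1 and 2, and 3 of 35 with the block. With the block on replicates 1 and 2 it was 9 of 34, and with DESeq2 on them 6 of 35. In the same order, 588 (2.96%), 277 (1.37%), 1200 (6.04%) and 815 (3.24%) of all genes were called. DESeq2 with all 3 replicates called 87 and 1 fit over all 4 groups 3. Under mock, 3 of all genes were called with replicates 1 and 2, 61 with the block, 438 with the block on replicates 1 and 2, 35 with DESeq2 and 182 with DESeq2 on replicates 1 and 2, and the interaction was called for 2 with replicates 1 and 2, 1 with DESeq2 and 66 with DESeq2 on those replicates. DESeq2 on replicates 1 and 2 was chosen after the data had been seen.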
